A study of Mus musculus with 6 samples.

Results

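The genes described are 10 members of the AP-1 and immediate early group, Fos, Fosb, Fosl1, Fosl2, Jun, Junb, Jund, Egr1, Ier2 and Batf, out of 33965 genes in the deposited table. They were chosen by name with the fold changes between GB2 and PBS tumors in these same counts already known, and each name matched 1 row. The data are bulk RNA-seq of 6 MC38 tumors, of which 3 received PBS and 3 received GB2, a prodrug that links the STING agonist MSA-2 to the TREM2 inhibitor artesunate by a disulfide bond. MC38 is a mouse colon carcinoma line, and the tumors grew under the skin of female C57BL/6 mice that were 6 weeks old when bought. GB2 was injected into a vein at 10 mg/kg in this tumor model, and neither a separate dose nor the time from the last dose to collection is given for the sequenced tumors. The labels do not state that each tumor came from a separate mouse, so the spread reported is that between these samples.

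AP-1 is a pair of bZIP proteins, usually 1 from the JUN family and 1 from the FOS family, that binds DNA as a dimer. JUN proteins can pair with each other, whereas FOS proteins need a JUN partner. Immediate early genes are transcribed within minutes of a stimulus such as a growth factor, a cytokine or stress, without new protein synthesis, and most of their transcripts decay fast. In tumors, AP-1 is known for driving proliferation, invasion and matrix remodelling, and in macrophages it acts with NF-κB on inflammatory genes. The members differ in kind, since Jund is expressed in resting cells, whereas Fos, Fosb, Egr1 and Ier2 are classic induced genes and Batf acts mainly in lymphoid and dendritic cells.

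Total counts ran from 64764405 to 69878156 in PBS tumors and from 81210553 to 83690056 in GB2 tumors, and about 4 counts stand for 1 read pair. PBS tumor 1 stood apart on the first principal component of log2 CPM (34.0% of the variance), at -122 against -1.41 to 44.4 in the other tumors. It also had the highest summed level of 5 erythroid genes, 7470 CPM (counts scaled to library size), against 507 and 2689.9 in the other PBS tumors and 94.6 to 1271 in GB2 tumors. For the members and for the medians of gene lists, values without PBS tumor 1 are therefore given wherever they differ in sign or by more than the standard error. The summed level of 6 epithelial genes, among them Epcam and Cdh1, was low in all tumors, between 3.00 and 8.51 CPM. Each value is an average over all cells of a tumor piece, in which fewer cells of a type and less RNA per cell cannot be told apart.

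Stretches upstream of 4 members are shown because the JUN family genes parted from each other in these tumors, and Fos is the main FOS partner by level. RefSeq promoter windows (GRCm38.p6) were found for 7 of the 10 members. Each stretch holds the 250 bases before the annotated start, 5′ to 3′ on the strand of the gene, at chr12:85473640-85473889 (plus) for Fos, chr4:95052223-95052472 (minus) for Jun, chr8:84978749-84978998 (minus) for Junb and chr8:70697489-70697738 (plus) for Jund. Capitals mark matches to the motifs searched, which are described after the sequences.
Fos: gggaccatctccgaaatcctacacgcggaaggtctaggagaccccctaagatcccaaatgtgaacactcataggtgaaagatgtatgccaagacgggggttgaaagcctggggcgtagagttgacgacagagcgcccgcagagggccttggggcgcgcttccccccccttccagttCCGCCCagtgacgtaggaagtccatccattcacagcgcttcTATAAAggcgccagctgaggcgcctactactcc
Jun: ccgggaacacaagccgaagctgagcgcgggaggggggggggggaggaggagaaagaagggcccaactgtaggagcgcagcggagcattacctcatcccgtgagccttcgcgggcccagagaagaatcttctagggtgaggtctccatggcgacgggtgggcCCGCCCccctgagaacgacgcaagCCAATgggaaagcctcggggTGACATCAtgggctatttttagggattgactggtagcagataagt
Junb: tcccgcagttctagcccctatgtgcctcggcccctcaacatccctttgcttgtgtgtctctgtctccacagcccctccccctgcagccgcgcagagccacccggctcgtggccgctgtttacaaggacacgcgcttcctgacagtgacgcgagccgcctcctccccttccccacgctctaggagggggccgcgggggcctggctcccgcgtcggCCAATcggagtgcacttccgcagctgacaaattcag
Jund: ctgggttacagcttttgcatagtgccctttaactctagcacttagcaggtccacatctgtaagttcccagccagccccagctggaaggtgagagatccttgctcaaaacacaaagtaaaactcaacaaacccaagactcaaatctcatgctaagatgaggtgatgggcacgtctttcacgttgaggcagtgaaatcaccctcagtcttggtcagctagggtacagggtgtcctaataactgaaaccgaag

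The motifs were searched on both strands. The Jun window held TGACATCA, an AP-1-like sequence, from -45 to -38 relative to the start, and 2.93% of 32851 windows of the same length held it. The same window held CCAAT from -65 to -61 and a GC box, GGGCGG, from -89 to -84 on the opposite strand. CCAAT was also found in the Junb window, from -36 to -32, and in 33.8% of all windows. The Fos window held a TATA box, TATAAA, from -33 to -28, which 12.4% of all windows held, and a GC box. GGGCGG was present in 5 of the 7 member windows and in 32.7% of all windows. The AP-1 site TGANTCA (6.75% of all windows), the cAMP response element TGACGTCA (1.55%) and the CArG box (1.47%) were in 0 of the 7 member windows. In the Jund window none of the motifs was found, and its GC content was 47.6%, against 61.2% for Jun and 66.4% for Junb. A missing match says only that these letters are not in this stretch.

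Levels were compared between genes as FPKM, which are scaled to transcript length. In PBS tumors the order from high to low was Jund, Fos, Ier2, Jun, Junb, Fosl2, Egr1, Batf, Fosb and Fosl1. Jund, the JUN family member of resting cells, stood at 46.3 ± 12.04 FPKM (SD, n = 3). Its lowest PBS tumor (33.9 FPKM) lay above the highest PBS value of Fos (29.4 FPKM). Fos, at 25.0 ± 3.79 FPKM, overlapped Ier2 at 22.7 ± 2.99, and Ier2 overlapped Jun at 21.8 ± 1.28. Junb (10.9 ± 1.95 FPKM), Fosl2 (4.38 ± 1.34) and Egr1 (2.02 ± 0.768) followed, each with a range apart from that of the gene above it. Egr1 and Batf (1.26 ± 0.369 FPKM) overlapped, while Fosb stood at 0.364 ± 0.149 and Fosl1 at 0.0188 ± 0.0163.
In GB2 tumors Jund no longer stood apart from the next gene. Jund stood at 22.2 ± 3.95 FPKM, Ier2 at 19.95 ± 1.45, Jun at 19.5 ± 2.78 and Fos at 19.1 ± 5.22 (SD, n = 3), and each range overlapped that of the next gene. The order of the lower 6 genes was that of PBS tumors, from Junb (11.8 ± 1.37 FPKM) to Fosl1 (0.109 ± 0.0247 FPKM).

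**Figure D1:**
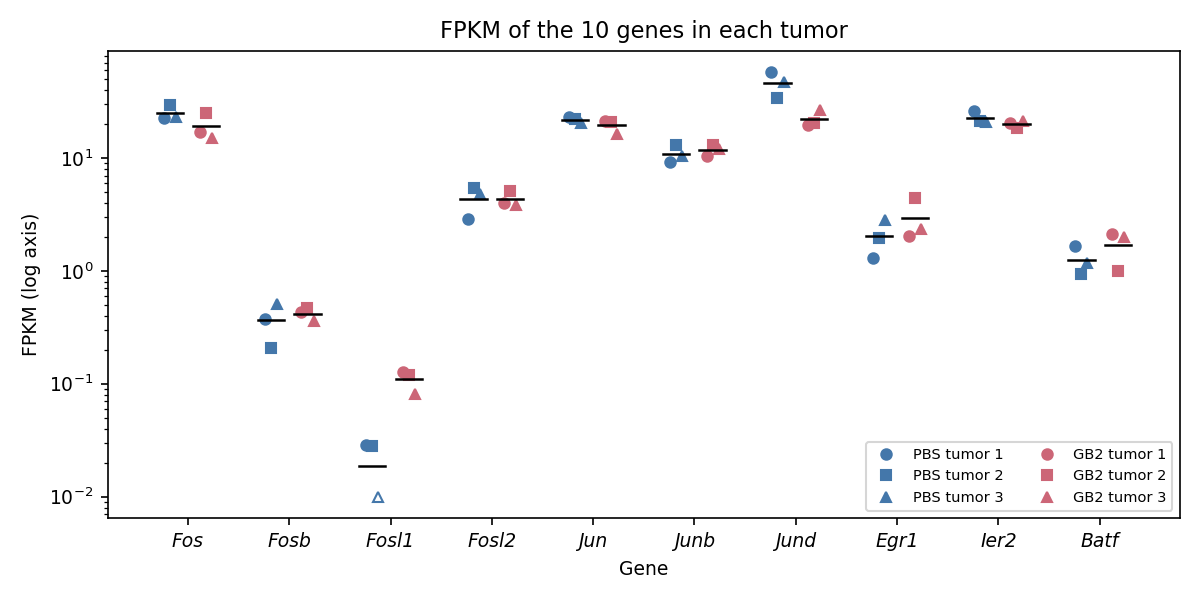
FPKM of each of the 10 genes (log axis) in the 3 PBS tumors (blue) and the 3 GB2 tumors (red), 1 symbol per tumor number, with black bars for group means. The PBS and GB2 values are apart for Jund and Fosl1, and overlap for the other genes. The open symbol is Fosl1 in PBS tumor 3, a value of 0 drawn at the foot of the axis.

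GB2 tumors were then compared with PBS tumors as CPM. Since this contrast was known when the 10 genes were chosen, their differences are a description and no test is read from them. Of the 19602 genes that passed the filter on low counts, 0 (0.00%) were called by edgeR's quasi-likelihood test, which required an adjusted p below 0.05 together with a 2-fold difference, members included. Without adjustment, 1360 genes (6.94%) had a p below 0.05. A nominal limit, meaning an unadjusted p below 0.05 together with a 2-fold difference, was passed by 733 higher genes (3.74% of those tested) and 180 lower genes (0.918%), and Jund was among the latter. DESeq2 called 352 genes higher (1.80%) and 33 lower (0.168%), and 1 of the latter was Jund. As Jund was chosen with these counts known, neither outcome is read as a test of it. The GB2 values all lay above the PBS values in 8.61% of tested genes and all below in 6.68%. Among the members this held above for Fosl1 and below for Jund. All 10 members passed the filter, but Fosl1 did so through the GB2 tumors alone and therefore had to differ. The median log2 fold change was -0.01 over the 10 members and -0.07 without Fosl1, beside -0.02 over all tested genes.

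Jund (ENSMUSG00000071076, chromosome 8 from 71151599 to 71153265 in the positions of the table) showed the clearest difference among the well-measured members. It is a gene of 1 exon whose protein is known for restraining growth in several cell types. Its levels were 113, 58.7 and 81.0 CPM in PBS tumors 1, 2 and 3. GB2 tumors 1, 2 and 3 had 32.7, 35.6 and 44.9 CPM. Every GB2 tumor lay below every PBS tumor, and the PBS tumors were spread more widely. The mean was 84.1 ± 27.1 CPM in PBS and 37.7 ± 6.38 CPM in GB2 tumors (SD, n = 3), which is 2.23-fold higher in PBS tumors. On the log2 scale the edgeR fit gave -1.16 (SE, the standard error of the fit, 0.27). With each tumor left out in turn it lay between -1.36 and -0.87, and the smallest size, -0.87, was that without PBS tumor 1, which is under the 2-fold difference of the nominal limit. The read numbers were large, between 2745 and 6660 counts per tumor. A gene on the other strand, Gm11175, shares 919 bases with Jund in the table and had at most 3 counts in any tumor.
Jund has one of the most GC-rich transcripts of the table, at 67.1%, higher than 99.8% of the tested genes. The 959 genes of the highest of 20 GC classes, from 59.7% to 78.3%, had a median log2 fold change of -0.10, against -0.01 over all 19175 genes with a GC value. Relative to that class, the log2 fold change of Jund was -1.06. Junb and Ier2 lie in the same class and had log2 fold changes of 0.05 and -0.27.

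Jun and Junb, the other two JUN family genes, are also transcribed from 1 exon and are induced by stimuli, JUN as the main activating partner of FOS and JUNB as a weaker activator. Jun had levels of 85.3, 73.1 and 66.9 CPM in PBS tumors and 68.4, 69.9 and 52.5 CPM in GB2 tumors. The groups overlapped, and the log2 fold change was -0.24 (SE 0.19). It was -0.12 both without GB2 tumor 3 and without PBS tumor 1. Junb was at 24.6, 31.1 and 24.8 CPM in PBS tumors and 24.0, 31.6 and 27.8 CPM in GB2 tumors. The groups overlapped. The log2 fold change of Junb was 0.05 (SE 0.19), and its sign was the opposite, at -0.05, without GB2 tumor 2. Junb shares 351 bases with Prdx2 on the other strand, which was counted at 16459 to 28955 per tumor.
The makeup of the JUN family differed between the groups. Jund took 64.3%, 49.1% and 60.5% of the summed FPKM of the family in the PBS group (tumors 1, 2 and 3), and the GB2 group had shares of 38.1%, 37.4% and 48.6%. The highest GB2 share was just under the lowest PBS share. The summed FPKM of the family was 79.0 ± 10.5 in PBS and 53.6 ± 2.06 in GB2 tumors (SD, n = 3). The sum over the 4 FOS family genes was 29.8 ± 4.72 and 24.0 ± 5.98 FPKM, and the JUN sum over the FOS sum was 2.73 ± 0.748 and 2.32 ± 0.531, ranges that overlapped.

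**Figure D2:**
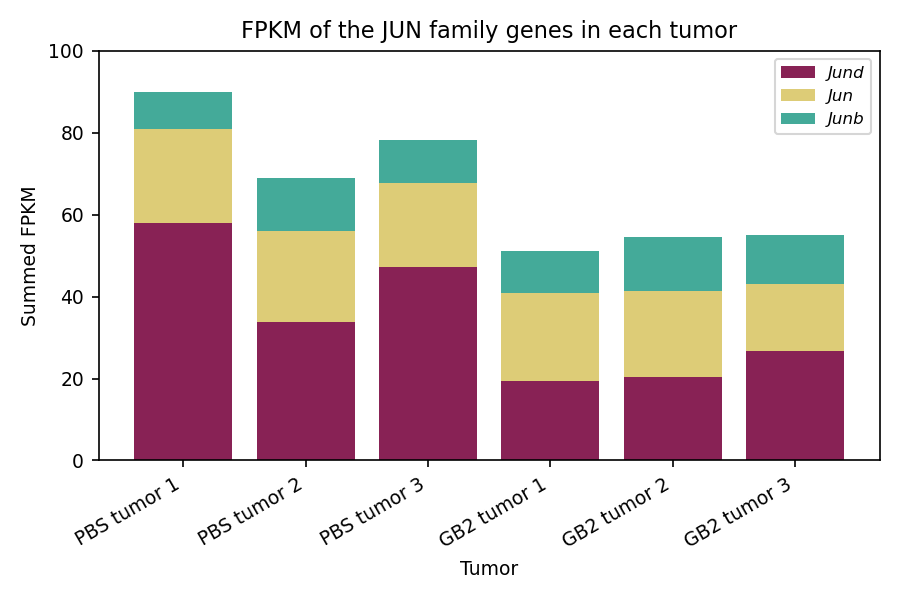
Summed FPKM of Jund, Jun and Junb in each tumor, as stacked bars. The bars of the 3 GB2 tumors, between 51.2 and 55.1 FPKM, are lower than those of the 3 PBS tumors, between 68.9 and 90.0 FPKM, and Jund (the lowest segment) makes up most of that difference.

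In the FOS family, Fos carried 77.9% to 87.4% of the summed FPKM in every tumor. Fos (ENSMUSG00000021250, chromosome 12 from 85520664 to 85524047 in the table) is the archetype of the immediate early genes. It stood at 62.3, 71.8 and 55.4 CPM in PBS tumors and at 40.5, 61.6 and 36.0 CPM in GB2 tumors. GB2 tumors 1 and 3 lay below all PBS tumors, and GB2 tumor 2 lay among them. The mean was 63.2 ± 8.24 CPM in PBS and 46.0 ± 13.7 CPM in GB2 tumors (SD, n = 3), and the log2 fold change was -0.46 (SE 0.24). It was -0.72 without GB2 tumor 2 and -0.31 without GB2 tumor 3.
Fosl2, which encodes FRA-2, was the second FOS family gene by level. It had 32.5, 54.8 and 47.8 CPM in PBS tumors and 39.3, 52.1 and 37.6 CPM in GB2 tumors. The groups overlapped almost fully, with a log2 fold change of -0.07 (SE 0.24), which became 0.10 without PBS tumor 2 and -0.24 without PBS tumor 1. Fosb was low, at 2.75, 1.38 and 3.27 CPM in PBS and 2.70, 3.08 and 2.28 CPM in GB2 tumors. Its log2 fold change of 0.12 (SE 0.38) was -0.16 without PBS tumor 2.
Fosl1, which encodes FRA-1, an AP-1 subunit often raised in invasive carcinoma cells, was close to the detection limit. It had 5, 5 and 0 counts in PBS tumors and 22, 22 and 15 counts in GB2 tumors. Every GB2 value was above every PBS value, but each PBS tumor was under 3 read pairs. In read pairs the sums were about 2 over the PBS tumors and 15 over the GB2 tumors, a ratio of 6.20 after scaling to library totals, with a 95% exact interval of 1.44 to 55.9 that covers counting error only. The ratio of the mean CPM, without rounding to whole read pairs, was 4.52. Because the gene entered through the GB2 tumors, nothing is read from where this interval lies. The table places the gene across 2767 bases of Ccdc85b on the other strand, with 775 to 2487 counts per tumor.

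Egr1 encodes a zinc finger factor induced with Fos through the same serum response factor sites. It stood at 6.76, 9.06 and 13.01 CPM in PBS tumors and at 9.19, 20.9 and 10.6 CPM in GB2 tumors. GB2 tumor 2 was the highest of the 6, while the other two GB2 tumors fell within the PBS range. The log2 fold change was 0.50 (SE 0.39), and 0.04 without GB2 tumor 2. Ier2, a nuclear protein gene of 1 exon, had 46.4, 33.6 and 32.4 CPM in PBS and 31.2, 29.3 and 32.5 CPM in GB2 tumors. The groups overlapped only between GB2 tumor 3 and PBS tumor 3. The log2 fold change was -0.27 (SE 0.20), and -0.08 without PBS tumor 1, the highest sample.
Batf encodes a bZIP protein without the transactivation region of FOS that pairs with JUN proteins and IRF4 or IRF8 in T cells, B cells and dendritic cells. It had 2.75, 1.39 and 1.73 CPM in PBS tumors and 3.05, 1.49 and 2.83 CPM in GB2 tumors. GB2 tumors 1 and 3 and PBS tumor 1 were high, and the remaining tumors were low. The log2 fold change was 0.33 (SE 0.41), and 0.67 without PBS tumor 1. The summed level of 8 T cell genes ran from 0.467 to 5.70 CPM in PBS and from 0.690 to 3.99 CPM in GB2 tumors. The summed level of 6 dendritic cell genes was higher in every GB2 tumor. It ran from 8.23 to 10.7 CPM in PBS and from 13.9 to 16.4 CPM in GB2 tumors. Flt3 and Xcr1 were under 3 read pairs in every tumor. Of the 4 tested genes, 2 (Itgax and Ccr7) lay apart between the groups, and Zbtb46 and Clec9a overlapped. Zbtb46 had a mean of 7.21 CPM in PBS and 9.07 CPM in GB2 tumors, and Itgax 1.51 and 5.22 CPM. The part of these cells in the Batf values was not tested.

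**Figure D3:**
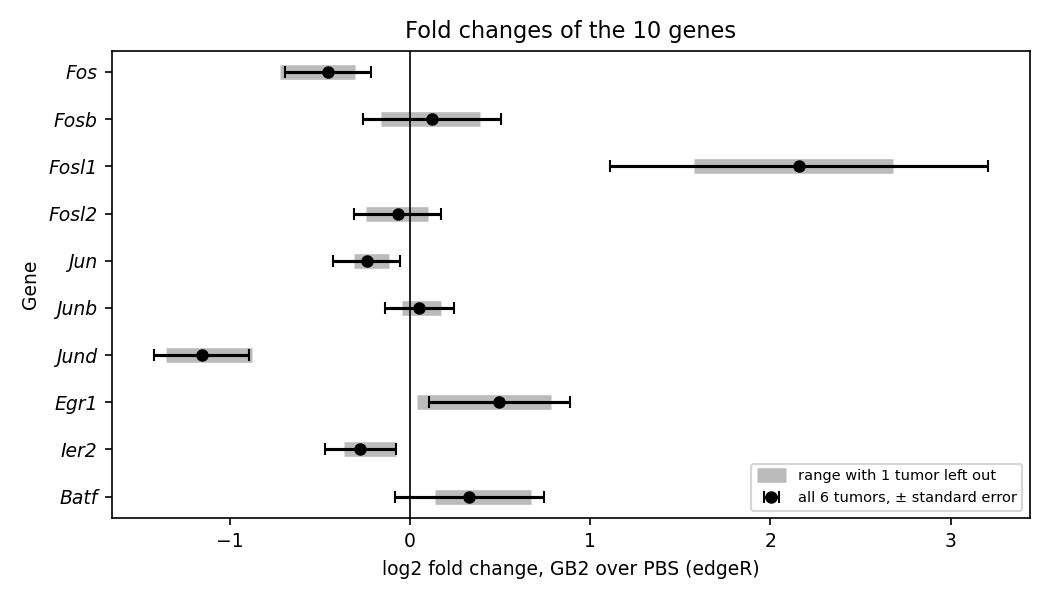
Log2 fold change of GB2 over PBS tumors for the 10 genes, with the standard error of the edgeR fit (black) and the range when 1 tumor is left out (grey). Jund lies at -1.16 and Fosl1 at 2.16, a fitted value that rests on 5, 5 and 0 counts in PBS tumors. The other 8 genes lie between -0.46 and 0.50.

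Variation between tumors of the same group was measured as the pooled within-group SD of log2 CPM, which had a median of 0.41 over all tested genes. Junb (0.20), Jun (0.21) and Ier2 (0.21) varied less than most tested genes, at the percentiles 16.2, 17.8 and 18.4. Fos (0.32), Fosl2 (0.33) and Jund (0.37) lay at the percentiles 36.2, 38.2 and 44.4. Fosb (0.49), Batf (0.53) and Egr1 (0.56) varied more than the median gene, and Fosb and Batf also have few counts, as has Fosl1 (0.83).
Deviations from the group mean were compared between the members other than Fosl1, over 6 tumors, with both genes of a pair read from the same libraries. Of 36 pairs, 18 had a positive and 18 a negative correlation, with a median of -0.03. Fos, Fosl2, Junb and Egr1 formed a group in which all pairs were positive, with r from 0.52 (Egr1 and Junb) to 0.76 (Egr1 and Fosl2). These 4 genes were each highest, among GB2 tumors, in GB2 tumor 2, as were Fosb and Jun outside the group. Jund, Ier2 and Batf formed another, with r of 0.78 for Jund and Ier2, 0.76 for Batf and Ier2 and 0.64 for Batf and Jund. Among PBS tumors, all 3 were highest in PBS tumor 1, as was Jun outside the group. Without that tumor, r was 0.18 for Jund and Ier2, 0.72 for Batf and Ier2 and 0.30 for Batf and Jund, while the pairs of the first group stayed between 0.42 (Egr1 and Junb) and 0.99 (Fos and Fosl2). Over all 6 tumors the lowest value was that of Batf and Fosl2, at -0.95. These groupings were made after the values were seen.
Among 11112 other genes with a mean of at least 5 CPM, the deviations of Dusp3 (r = 0.994), Tent5a (0.987), Pakap (0.985), Plekha3 (0.976) and Tuft1 (0.976) were most like those of Fos. For Jund they were Gmppb, Srp54c (0.998), Nol11 (0.997), Commd7 (0.993) and Slc30a5 (0.991). A correlation above 0.9 was reached by 43 genes for Fos and by 328 for Jund. The log2 fold changes of the 5 genes most like Jund lay between -0.28 and 0.13, against -1.16 for Jund.

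**Figure D4:**
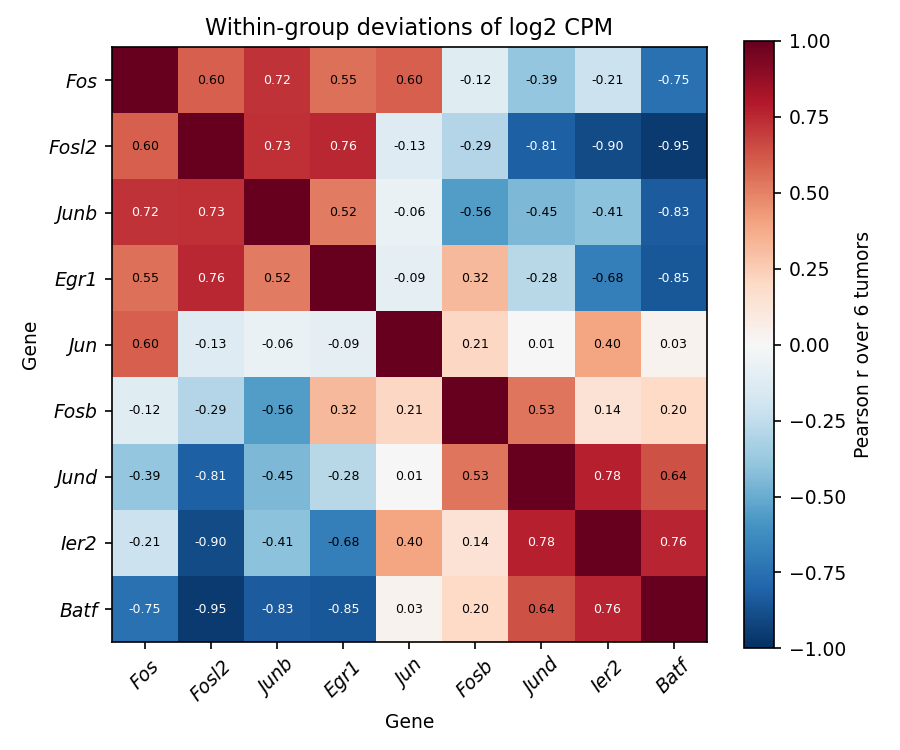
Pearson correlations between the within-group deviations of log2 CPM of 9 genes over 6 tumors (red positive, blue negative), with Fosl1 left out for its low counts. Genes are ordered to show a block of Fos, Fosl2, Junb and Egr1 and a block of Jund, Ier2 and Batf.

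Genes around AP-1 were described from lists, which were chosen with earlier results of these data known. Other bZIP genes of the AP-1 superfamily counted 11, of which 5 were higher and 6 lower in GB2 tumors, with a median log2 fold change of -0.02. Atf3, a stress-induced partner of JUN, had a log2 fold change of -0.21, and Jdp2, a repressing partner, one of 0.20.
Other immediate early and early response genes counted 27 tested of 29, with 13 higher, 14 lower and a median of -0.02. Nr4a2, an orphan nuclear receptor gene, had at least 4.94 CPM in each PBS tumor and 3.38, 2.19 and 4.68 CPM in the GB2 tumors, with a log2 fold change of -1.08 (SE 0.39, adjusted p 0.621 in edgeR). Sgk1, a serum- and glucocorticoid-induced kinase gene, had 5.95, 7.35 and 5.43 CPM in PBS tumors and 10.2, 11.2 and 19.1 CPM in GB2 tumors, with a log2 fold change of 1.11 (SE 0.31, adjusted p 0.374). The groups did not overlap for Nr4a2 and Sgk1, and these were the only genes of the 27 past the nominal limit, 1 on each side, beside 3.74% of all tested genes on the higher and 0.918% on the lower side. After adjustment edgeR called 0 of the 27, and DESeq2 called 1, Sgk1, as higher (adjusted p 0.0405), beside 1.80% of all tested genes. Nr4a1 (-0.63) was also lower in every GB2 tumor, and Egr2 (0.58) and Dusp5 (0.59) were higher in every GB2 tumor. In all, 3 of the 27 lay above and 2 below without overlap, beside 8.61% and 6.68% of all tested genes. The phosphatase gene Dusp1 (0.33), the mRNA-decay factor gene Zfp36 (-0.08), Klf6 (-0.07) and Myc (-0.11) had small log2 fold changes.
MAP kinases and the SRF and CREB factors upstream of these promoters counted 19, with 12 higher, 7 lower and a median of 0.05, and 0 of them passed the nominal limit. Map2k2 had a log2 fold change of -0.34, Rps6ka3 one of 0.35, Elk4, which encodes an SRF partner, one of -0.51, and Mapk10, at no more than 0.655 CPM in any tumor, one of 2.40. Heat shock genes, a sign of cell stress, counted 8, of which 2 were higher and 6 lower, with a median of -0.12 and groups that overlapped in each gene. Their log2 fold changes included Dnajb1 at -0.51, Hspe1 at -0.73, Hspb1 at 0.56 and Hsp90aa1 at -0.32. Without PBS tumor 1 the signs of 4 medians changed, to 0.08 for the bZIP genes, 0.07 for the early response genes, -0.05 for the upstream genes and 0.12 for the heat shock genes.

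Textbook AP-1 target genes counted 18, of which 14 were higher and 4 lower in GB2 tumors, with a median log2 fold change of 0.88 beside -0.02 over all tested genes. The nominal limit was passed by 7 of the 18, all higher, beside 3.74% of all tested genes. The list was chosen with earlier results of these data known, so such counts describe it and are not a test of it. After adjustment edgeR called 0 and DESeq2 called 4 as higher, beside 1.80% of all tested genes. All GB2 values lay above all PBS values in 9 of the 18, beside 8.61% of all tested genes. Without PBS tumor 1 the median was 0.90, and 8 genes passed, all higher. In that fit 950 of all 20529 tested genes passed on the higher side. The collagenase gene Mmp13 had 1.49, 1.80 and 1.46 CPM in PBS tumors and 7.36, 6.54 and 9.56 CPM in GB2 tumors, a log2 fold change of 2.30 (SE 0.28, adjusted p 0.186 in edgeR). The gelatinase gene Mmp9 had 3.31, 1.32 and 2.14 CPM in PBS tumors and 9.48, 12.4 and 11.8 CPM in GB2 tumors, a log2 fold change of 2.32 (SE 0.37, adjusted p 0.186). In both genes all GB2 tumors lay above all PBS tumors. The same held for Plaur and Ccl2 and for Il1b (log2 fold change 2.00), Spp1 (1.66), Il6 (1.44), Mmp3 (1.33) and Plau (1.16). Il1b and Il6 encode cytokines, Spp1 osteopontin, Mmp3 stromelysin and Plau urokinase. On the lower side, the metallothionein gene Mt1 had a log2 fold change of -0.69 and Vegfa one of -0.67, with overlapping groups, while Hmox1 (-0.42) was lower in every GB2 tumor.
Markers of several other cell types were also higher in GB2 tumors, while those of others were not. All 11 macrophage genes were higher in every GB2 tumor, with a summed level of 65.3 to 93.6 CPM in PBS and 265 to 371 CPM in GB2 tumors and none at 0. All 8 fibroblast genes were as well, at 295 to 525 CPM in PBS and 980 to 1352 CPM in GB2 tumors. Endothelial genes were higher in every GB2 tumor for 5 of 6, and neutrophil genes for 4 of 5 tested of 8, where Ly6g, Mpo and Elane had under 3 read pairs in every tumor. The summed level of 6 skeletal muscle genes was also higher in every GB2 tumor, at 91.0 to 154 CPM in PBS and 191 to 221 CPM in GB2 tumors. Over all tested genes, 8.61% were higher in every GB2 tumor. Of 7 tested T cell genes 6 were lower, as were all 5 erythroid genes, and 3 of 6 proliferation genes were higher, with overlap in each. Genes higher in every GB2 tumor were 1 of 6 for keratinocyte and skin and 1 of 5 for adipocyte. Among tested genes they were 0 of 5 for NK and cytotoxic cells, 1 of 3 for B cells and 2 of 5 for epithelium. The part of these cell types in the values of the target genes and of Jund was not tested.

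**Figure D5:**
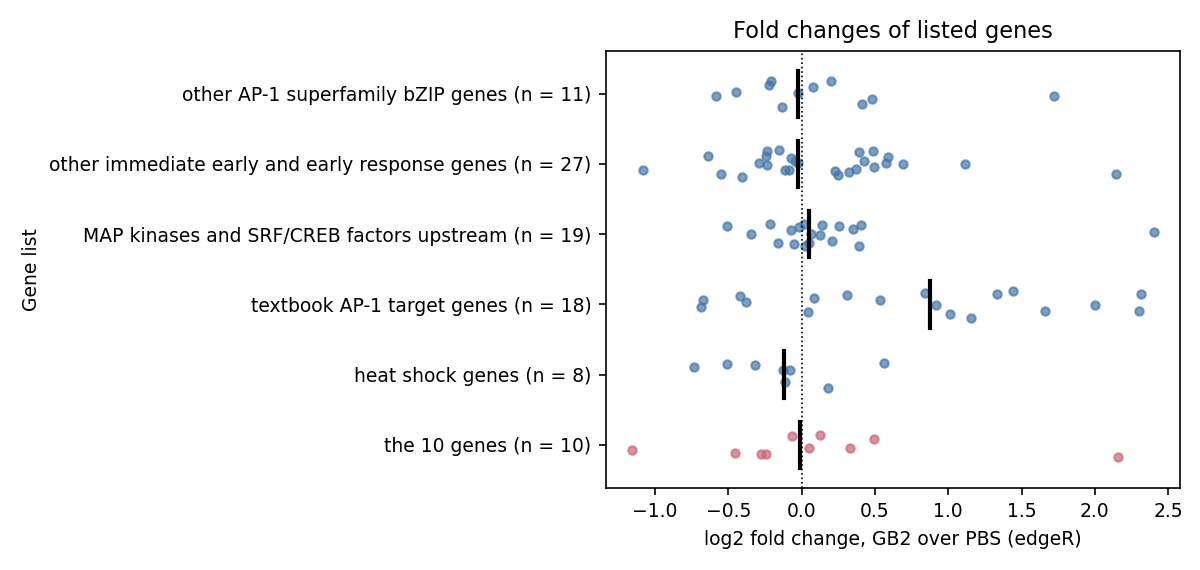
Log2 fold change of GB2 over PBS tumors for the tested genes of each list (blue) and the 10 members (red), 1 point per gene, with black bars for medians and vertical scatter added for legibility. The median of the AP-1 target list is 0.88, and those of the other lists lie between -0.12 and 0.05.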

How the data were processed

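RNA was poly-A selected and sequenced as stranded paired-end libraries, 1 per tumor. The estimated counts that the authors deposited are whole numbers per gene, not scaled between tumors. The table holds 7017 values of 4, against 2984 of 3 and 2017 of 5, so about 4 counts were taken to stand for 1 read pair. Libraries keep strand, but whether counting used it is not given in the sources used here. The FPKM values the authors deposited are scaled to transcript length and library total. The submitters' processing notes name cutadapt 1.9, HISAT2 2.2.1, StringTie 2.1.6, DESeq2, edgeR and mm10, but of 31999 genes found by ID in a GRCm38 annotation only 641 (2.00%) have the same start and end, so gene positions are those of the table, whose build is not named. Promoter windows are on GRCm38.p6.

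The fits used edgeR 4.0.16 under R 4.3.3, with filterByExpr (minimum count 10), TMM, glmQLFit and glmQLFTest, with Benjamini-Hochberg adjustment over all tested genes. CPM are scaled to library total times TMM factor. Log2 CPM used a prior count of 2. Biological variation between tumors of a group was 40.5%, which limits what 3 tumors per group can show. Alternatives used DESeq2 1.42.0, limma 3.58.1 on log2(FPKM + 1) and log2(FPKM + 0.1), and other settings given at the end. The fits were tested on simulated data. The members, lists and tests were chosen with earlier results of these data known. All 10 members were described, and from each list the genes past the nominal limit, or otherwise the 4 with the smallest p, and for likeness the 5 genes of highest r. Further genes were named after their values were seen. They are Atf3, Jdp2, Nr4a1, Egr2, Dusp5, Dusp1, Zfp36, Klf6, Myc, Plaur, Ccl2, Mt1, Vegfa and Hmox1. Some results on listed and marker genes are not reported here.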

Additional observations from a re-analysis of the deposited data

How the results depend on the processing

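Over all alternatives, 145 fold changes of the members were recomputed, and all 145 lay within 1 within-group SD of the value reported, with 139 of the same sign. The 6 sign changes were in Fosl2, Fosb and Junb, whose fold changes are near 0. Jund stayed negative in all 15 alternatives, from -1.36 to -0.87, and its value after subtracting the median of its GC class, an alternative chosen after seeing the data, was -1.06. The number of genes called was 0 in all fits but DESeq2, which called 385 genes, 6 of them in the lists outside the members, and the cause was not tested. With 1 tumor left out, edgeR called 0 genes in each case. At the nominal limit, the number of higher genes was 355 with limma on log2(FPKM + 0.1) and 95 on log2(FPKM + 1), and the number of lower genes was 76 and 36, with 14170 genes tested. Without the filter on low counts 338 genes were lower, with 31840 tested. With 1 tumor left out, 503 to 950 genes were higher and 123 to 548 lower, the last number without PBS tumor 3, and 310 were lower without PBS tumor 2. Nothing in the labels ties tumors of the same number together, and the numbers were not taken as a pairing. Deviations of tumors with the same number correlated at 0.03, 0.15 and -0.24. With the number as a replicate block, 0 genes were called, 636 were higher and 128 lower at the unadjusted limit. Fosb and Fosl1 were too low to enter the limma fits, and Fosl1 fell out of the fit on counts divided by 4.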
